A study of Mus musculus with 6 samples.

Results

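Brd2, Brd3, Brd7, Brd8, Brd9, Ncoa1, Ncoa2, Ncoa3 and Ncoa6 encode bromodomain proteins and nuclear receptor coactivators that work beside the acetyltransferase p300. These 9 genes were chosen by name from the 49492 rows of a gene count table, and all 9 were among the 15741 genes with enough counts to test. RNA came from RAW264.7 cells, a mouse macrophage line, transfected for 48 h at 50 nM with either an siRNA that targets Ep300 (3 libraries, labelled as Ep300 silenced) or a control siRNA (3 libraries, labelled as WT). Both groups thus received an siRNA and the same transfection, and no untransfected cells were compared. Nothing in the labels ties the 3 libraries of a group to separate cultures, and the p-values therefore cover the spread among these libraries alone, which may be technical.

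Bromodomains bind acetylated lysine, so bromodomain proteins read the mark that p300 and its paralog CBP write on histones and other proteins. Brd2 and Brd3 belong to the BET family, which carries a pair of bromodomains and recruits elongation machinery to acetylated chromatin. Brd7 and Brd9 are subunits of SWI/SNF chromatin remodelling complexes, and Brd8 is a subunit of the TIP60 acetyltransferase complex. Ncoa1, Ncoa2 and Ncoa3 are the p160 coactivators, which dock on ligand-bound nuclear receptors and in turn bind p300 or CBP. Ncoa6 also binds nuclear receptors, but it is not a p160 protein and is found with MLL3 and MLL4 methyltransferase complexes. In macrophages these proteins serve transcription by inflammatory factors and by nuclear receptors such as the glucocorticoid receptor and LXR.

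The count table was first checked on the targeted gene and on cell type markers. Ep300 stood at 51.1, 59.0 and 55.0 CPM (counts scaled to library size) in replicates 1, 2 and 3 of Ep300 siRNA, against 106.8, 115.3 and 118.4 CPM in control siRNA replicates 1, 2 and 3. Its log2 fold change was −1.04 ± 0.07 (SE), which leaves 0.485 of the control level (edgeR adjusted p = 3.62e-05). Total counts ranged from 29993567 to 45377510 per library, the highest being control siRNA replicate 1. All 10 macrophage markers had counts in every library, and their summed level was 11257 to 12213 CPM after Ep300 siRNA and 9967 to 11631 CPM after control siRNA, most of it Lyz2 (means of 8263 and 7471 CPM). The summed level of 20 markers of other cell types was 1.24 to 1.43 CPM after Ep300 siRNA and 1.65 to 2.02 CPM after control siRNA, with Cd3g, Ncr1, Mcpt4, Epcam and Alb at 0 counts in all libraries. The single macrophage markers differed in direction: the log2 fold change was 0.25 for Cd14 and 0.15 for Laptm5, but −0.24 for Csf1r, −0.23 for Adgre1 and −0.36 for Fcgr1. These 5 of the 10 had an unadjusted edgeR p under 0.05, as did 22.2% of all genes tested. None of the 10 passed edgeR's adjusted test, which 6.78% of all genes passed (adjusted p = 0.0535 for Cd14, the smallest). DESeq2 called 2 of the 10 (9.12% of all genes), and limma-voom called 2 (6.63% of all genes). Of the 2 markers of other cell types that could be tested, none passed by edgeR, adjusted or unadjusted, or by limma-voom. DESeq2 gave no adjusted p for Pdgfra, which is among these 2. The part of these marker levels in the results was not tested. Ep300 siRNA replicate 1 stood apart in reads of Gm42418, which lies over ribosomal RNA sequence: it had 5823 CPM there, and the other 5 libraries had 1327 to 2174 CPM. Brd2 and Brd7, the genes nearest to the threshold, were at log2 fold changes of 0.19 and 0.19 without that library.

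None of the 9 genes changed past the threshold after Ep300 silencing. Of all genes tested, 6.78% passed it, 2.76% being higher and 4.02% lower (edgeR's quasi-likelihood test, Benjamini-Hochberg adjusted p under 0.05). All 9 genes were well measured, with 867 to 17679 counts per library, and each log2 fold change had a standard error of 0.06 to 0.08. Their 95% intervals ran from 0.877-fold at the lowest bound, for Brd8, to 1.26-fold at the highest bound, for Brd7. Thus a loss like that of Ep300 itself lay outside the interval of every one of the 9 genes. The edgeR adjusted p ran from 0.0755 (Brd7) to 0.904 (Ncoa1). In bulk RNA, fewer cells that express a gene and less RNA of it per cell cannot be told apart.

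**Figure D1:**
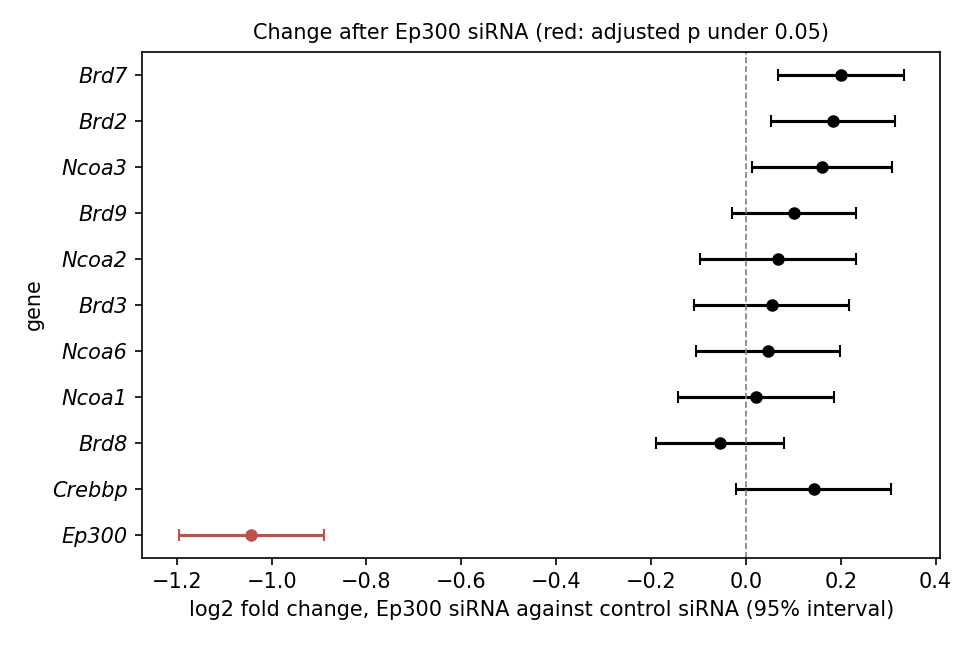
Log2 fold change after Ep300 siRNA against control siRNA (x axis) for each of the 9 genes, Crebbp and Ep300 (y axis), with points for the estimate and bars for the 95% interval from edgeR. Ep300 lies at −1.04, while the 9 readers and coactivators lie between −0.05 and 0.20.

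Of the 9 genes, 3 had an unadjusted edgeR p under 0.05, namely Brd7, Brd2 and Ncoa3, where 22.2% of all genes tested did. DESeq2 called 2 of the 9, Brd2 and Brd7 (9.12% of all genes), and limma-voom called 0 (6.63% of all genes). The log2 fold change was above 0 for 8 of the 9, against 49.2% of all genes. The median over the 9 was 0.07, against 0.00 over all genes. For 4 of the 9, Brd2, Brd7, Brd9 and Ncoa3, all 3 Ep300 siRNA libraries lay above all 3 control libraries. Over all genes tested the groups did not overlap for 27.5% (13% with Ep300 siRNA higher and 14.4% with it lower).

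Brd2 (GRCm38 chromosome 17, 34112023 to 34122634, minus strand) encodes a BET protein that binds acetylated histone tails. It stood at 437.0, 446.8 and 424.9 CPM in replicates 1, 2 and 3 of Ep300 siRNA and at 381.8, 396.8 and 373.0 CPM in control replicates 1, 2 and 3. The lowest Ep300 siRNA library was above the highest control library, and the spread within a group was 2.80% of the mean. The fold was 1.14 (95% interval 1.04 to 1.24) and missed the threshold (edgeR adjusted p = 0.0923). DESeq2 called it (adjusted p = 0.0295). In the annotation, 360 exon bases of Brd2 overlap H2-DMa, a gene on the other strand that had at most 341 counts in any library and a log2 fold change of −0.37 (edgeR adjusted p = 0.0889).

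Brd3 (chromosome 2, 27445579 to 27507662, minus strand), the other BET gene of the group, encodes a reader that binds acetylated transcription factors as well as histones. It stood at 138.1, 146.9 and 149.8 CPM after Ep300 siRNA and at 124.5, 149.3 and 145.2 CPM after control siRNA, replicates in order. The groups overlapped, and control replicate 1 was below the other 5 libraries. The log2 fold change was 0.05 ± 0.07 (SE; edgeR adjusted p = 0.733), and it was −0.02 without control replicate 1.

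Brd7 (chromosome 8, 88331039 to 88362194, minus strand) encodes a subunit of PBAF, the SWI/SNF form that also holds Pbrm1 and Arid2. It stood at 387.5, 385.5 and 356.7 CPM in replicates 1, 2 and 3 of Ep300 siRNA and at 323.0, 327.9 and 332.7 CPM in control replicates 1, 2 and 3. The groups did not overlap, and the 3 control libraries were close to one another. Its fold of 1.15 (95% interval 1.05 to 1.26) was the largest point estimate of the 9 genes and missed the threshold (edgeR adjusted p = 0.0755). DESeq2 called it (adjusted p = 0.0193).

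Brd9 (chromosome 13, 73937811 to 73960895, plus strand) encodes the bromodomain subunit of non-canonical BAF, the SWI/SNF form built around Bicra or Bicral. It stood at 83.4, 87.9 and 83.4 CPM after Ep300 siRNA and at 75.8, 78.9 and 82.9 CPM after control siRNA. The groups were apart by a small margin, since control replicate 3 reached almost the level of the lower Ep300 siRNA libraries. The fold was 1.07 (95% interval 0.979 to 1.17, edgeR adjusted p = 0.362).

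Brd8 (chromosome 18, 34598615 to 34624601, minus strand), the TIP60 complex subunit, was the member of the group with a negative log2 fold change. It stood at 88.4, 98.0 and 91.6 CPM after Ep300 siRNA and at 96.6, 92.9 and 99.4 CPM after control siRNA, and the groups overlapped. The fold was 0.963 (95% interval 0.877 to 1.06, edgeR adjusted p = 0.663). The log2 fold change of −0.05 was −0.01 without Ep300 siRNA replicate 1, −0.03 without control replicate 3 and −0.10 without Ep300 siRNA replicate 2.

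Among the coactivators, Ncoa1 (chromosome 12, 4247362 to 4477182, minus strand), also known as SRC-1, was the closest to no difference. It stood at 29.6, 29.2 and 28.5 CPM after Ep300 siRNA and at 26.0, 29.2 and 30.7 CPM after control siRNA. The Ep300 siRNA libraries lay inside the range of the controls. The log2 fold change was 0.02 ± 0.08 (SE; edgeR adjusted p = 0.904), and it was −0.01 with library size alone and −0.04 without control replicate 1.

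Ncoa2 (chromosome 1, 13139105 to 13374083, minus strand), known as GRIP1 or TIF2, serves the glucocorticoid receptor as coactivator and, at some genes, as corepressor. It stood at 65.6, 69.0 and 64.6 CPM after Ep300 siRNA and at 56.7, 69.1 and 64.3 CPM after control siRNA. The groups overlapped, with control replicate 1 below the other 5 libraries. The log2 fold change was 0.07 ± 0.08 (SE; edgeR adjusted p = 0.657) and 0.00 without control replicate 1.

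Ncoa3 (chromosome 2, 165992636 to 166073242, plus strand), known as AIB1 or p/CIP (for its binding to p300 and CBP), is a p160 coactivator of several steroid receptors and of other transcription factors. It stood at 107.5, 100.4 and 103.7 CPM after Ep300 siRNA and at 85.0, 97.7 and 96.2 CPM after control siRNA. The groups did not overlap, and the lowest library was again control replicate 1. The fold was 1.12 (95% interval 1.01 to 1.24) and missed the threshold (edgeR adjusted p = 0.185). Without control replicate 1 the log2 fold change fell from 0.16 to 0.10.

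Ncoa6 (chromosome 2, 155390656 to 155473894, minus strand), known as ASC-2, stood at 59.6, 66.0 and 58.1 CPM after Ep300 siRNA and at 55.5, 60.8 and 61.7 CPM after control siRNA. The groups overlapped. The log2 fold change was 0.05 ± 0.07 (SE; edgeR adjusted p = 0.761), and it was −0.01 without Ep300 siRNA replicate 2, the library in which Ncoa6 was highest.

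Control siRNA replicate 1 was low for most of these genes. It held the lowest value of the 6 libraries for 7 of the 9 genes, all but Brd2 and Brd8. Its log2 level was below the mean of 6 libraries for 8 of the 9, with a median deviation of −0.12. The medians were −0.01 and 0.02 in control replicates 2 and 3, and 0.02, 0.09 and 0.02 in the Ep300 siRNA libraries, replicates in order. Without control replicate 1, the log2 fold change was above 0 for 5 of the 9 genes in place of 8, and the median over the 9 was 0.00 in place of 0.07. This library also had the highest total count, and the part of depth in its lower values was not tested. The differences of Brd2 and Brd7 were of like size without it, as leaving out any 1 library gave log2 fold changes of 0.17 to 0.22 for Brd2 and 0.18 to 0.24 for Brd7.

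**Figure D2:**
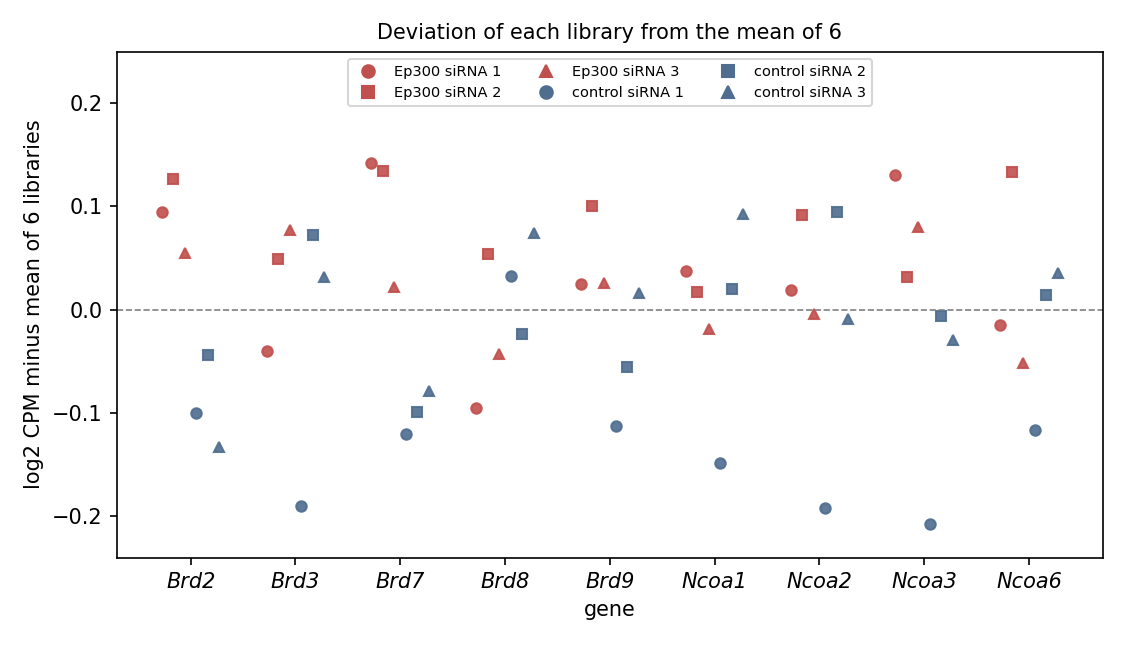
Log2 CPM of each library minus the mean of the 6 libraries (y axis) for each of the 9 genes (x axis), with colour for the group and marker shape for the replicate. Control siRNA replicate 1 (blue circles) is the lowest point for 7 of the 9 genes. For Brd2, Brd7, Brd9 and Ncoa3 all 3 control libraries lie below all 3 Ep300 siRNA libraries.

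Levels were compared between genes as CPM per kilobase of the longest coding transcript in the annotation. Brd7 was the most abundant at 90.4 ± 1.33 CPM per kilobase (SD, n = 3) in control cells, followed by Brd2 at 82.4 ± 2.58. Brd9 (32.6 ± 1.46), Brd3 (25.8 ± 2.45) and Brd8 (21.6 ± 0.739) formed the middle of the order. The coactivators were lower, with Ncoa3 at 12.3 ± 0.922, Ncoa6 at 8.36 ± 0.47, Ncoa2 at 7.76 ± 0.769 and Ncoa1 at 3.91 ± 0.329 CPM per kilobase. Ncoa3 was thus the most abundant p160 coactivator of these cells on this scale, and Ncoa1 the least. Of neighbours in this order, Ncoa6 and Ncoa2 overlapped between libraries and the other 7 pairs of neighbours did not, in either group. The order of the 9 genes was the same after Ep300 siRNA. It depends on the transcript taken: per kilobase of all annotated exons, Brd7 and Brd2 stayed first and second, while Brd3 and then Ncoa3 came next, ahead of Brd9 and Brd8.

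**Figure D3:**
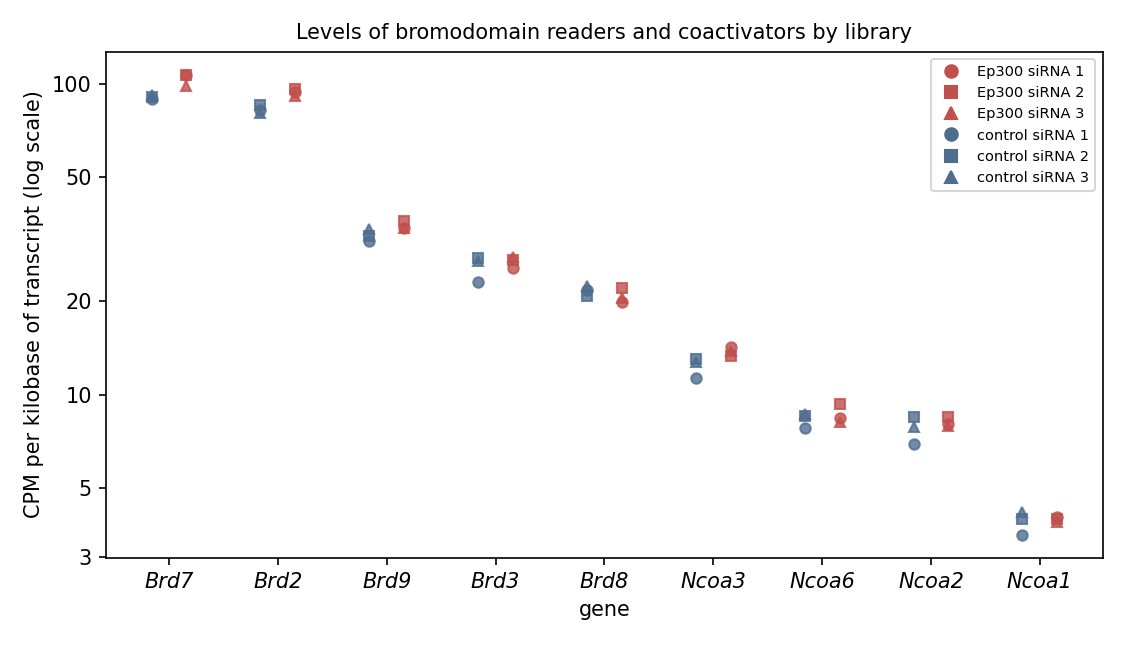
CPM per kilobase of the longest coding transcript (y axis, log scale) for each gene (x axis) in each of the 6 libraries, with control siRNA in blue and Ep300 siRNA in red. Levels fall from about 90.4 for Brd7 to 3.91 for Ncoa1 in control cells, a much wider range than any difference between the groups.

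Related genes were also compared with each other within each library, since the ratio of a pair of genes does not depend on the scaling between libraries. The ratio was tested for 6 pairs by a two-sided exact permutation test of 3 against 3 libraries, which cannot go below p = 0.1. The log2 ratio of Ncoa1 to Ncoa3 was −1.86, −1.78 and −1.87 in replicates 1, 2 and 3 of Ep300 siRNA and −1.71, −1.74 and −1.65 in the controls. All Ep300 siRNA libraries were below all controls, with a difference of −0.14 (exact permutation p = 0.1, 0.3 adjusted over the 6 pairs). The log2 ratio of Brd7 to Brd9 was 2.22, 2.13 and 2.10 against 2.09, 2.06 and 2.00, a difference of 0.10 with the groups again apart (exact permutation p = 0.1, 0.3 adjusted). For the BET pair, the log2 ratio of Brd2 to Brd3 was 1.66, 1.61 and 1.50 against 1.62, 1.41 and 1.36, and the groups overlapped (exact permutation p = 0.3, 0.45 adjusted). The groups also overlapped for Ncoa1 to Ncoa2 (difference −0.05), Ncoa2 to Ncoa3 (−0.09) and Ncoa6 to Ncoa3 (−0.12), at exact permutation p-values of 0.5, 0.3 and 0.4. With 3 libraries a group no pair could have passed at 0.05, so these p-values say nothing on whether the balance between related genes shifted.

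**Figure D4:**
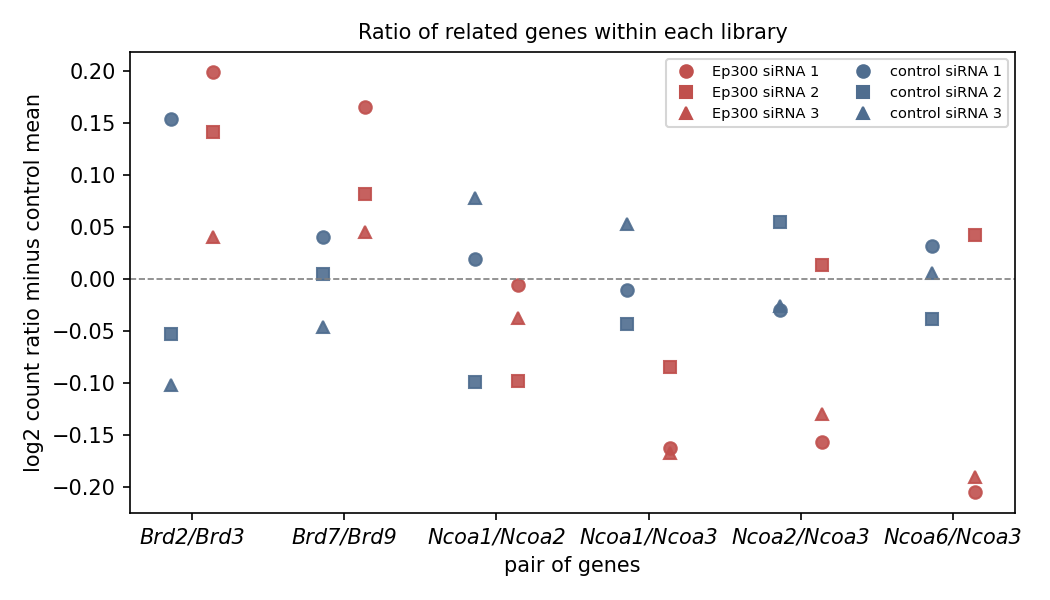
Log2 ratio of the counts of a pair of genes in each library, minus the mean of the 3 control libraries (y axis), for 6 pairs (x axis), with colour for the group and marker shape for the replicate. The groups are apart for Brd7/Brd9 and Ncoa1/Ncoa3 and overlap for the other 4 pairs.

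Reads shared with other genes were checked on the annotated transcripts, whose 50-base stretches were compared in the sense direction only. For 7 of the 9, no stretch of 50 bases of an annotated transcript was found in a transcript of another gene. The exceptions were Brd8, with 0.521% of its stretches, and Ncoa2, with 0.255%. For Brd8 the gene that shared the most was Zmynd8, which had up to 9067 counts in a library, more than Brd8 itself (2591 to 4473). Besides H2-DMa, an antisense gene that is not a row of the table used here overlaps 405 exon bases of Brd2 on the other strand. Another antisense gene that is not a row, 4921501I09Rik, overlaps 68 exon bases of Ncoa1. On the same strand as Brd3, Mir7578 shares 1 exon base with it and had at most 379 counts in any library. The 154 exon bases that Ncoa3 shares with Sulf2 lie on opposite strands, and Sulf2 had at most 223 counts in any library. The sources used here do not state whether the counting used the strand.

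Brd7 had the smallest p of the 9 genes. The genes whose log2 CPM followed it most closely over the 6 libraries were Myo9b (Pearson r = 0.994), Rnd2 (0.993) and Rnpepl1 (0.991). They were the closest of 9292 genes compared, from which predicted genes (Gm and Rik symbols) had been left out. These r are a description over 6 libraries of one table, in which all genes share the same library scaling. Brd7 was higher in all Ep300 siRNA libraries, so genes picked for following it lean the same way and give no separate support. Of these 3 genes, Rnd2, a small GTPase, rose (log2 fold change 0.44, edgeR adjusted p = 0.00606), while Myo9b was at 0.12 and Rnpepl1 at 0.15 and neither passed.

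Partner genes were read from the same test as 7 further lists. Of 31 other bromodomain genes tested, 1 rose, 1 fell (Ep300 itself) and 29 did not pass by edgeR, with a median log2 fold change of −0.02. The 2 calls compare with 6.78% of all genes, and DESeq2 called 4 where it called 9.12% of all genes. Brpf3, a scaffold of MYST acetyltransferase complexes, was the gene that rose, at 29.2, 27.5 and 26.8 CPM against 20.1, 23.2 and 23.0 CPM. All 3 Ep300 siRNA libraries were above the controls (1.26-fold, edgeR adjusted p = 0.0268). The call was lost with any 1 of the 6 libraries left out (adjusted p up to 0.079). Crebbp, which encodes CBP, had a fold of 1.10 and missed the threshold (log2 fold change 0.14 ± 0.07, SE, edgeR adjusted p = 0.293; 0.08 without control replicate 1).

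Of 23 elongation factors that BET proteins work with, 1 rose, none fell and 22 did not pass by edgeR (median 0.08). Over all genes tested, 6.78% were called, with 2.76% higher. The gene that rose was Hexim1, which encodes an inhibitor of the elongation kinase P-TEFb and whose transcript is widely used as a marker of exposure to BET inhibitors, none of which was applied here. Hexim1 stood at 78.4, 77.5 and 79.6 CPM after Ep300 siRNA and at 53.3, 54.9 and 58.2 CPM in the controls. The groups were far apart relative to their spread (1.41-fold, log2 fold change 0.50 ± 0.06, SE, edgeR adjusted p = 0.000865). It stayed past the threshold under all 17 alternatives run, with log2 fold changes of 0.47 to 0.54. The list's median was 0.01 without control replicate 1.

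Of 18 SWI/SNF subunits that partner Brd7 or Brd9, 2 rose, none fell and 16 did not pass by edgeR (median 0.11). EdgeR called 6.78% of all genes tested, with 2.76% higher. DESeq2 called 4 of the 18 and 9.12% of all genes. An unadjusted edgeR p under 0.05 was seen for 8 of the 18 (22.2% of all genes), and the groups did not overlap for 9 (27.5% of all genes). Smarcc2, a core scaffold subunit, stood at 389.9, 367.2 and 349.1 CPM after Ep300 siRNA and at 246.5, 287.7 and 293.8 CPM after control siRNA. It rose 1.34-fold with the groups apart (edgeR adjusted p = 0.0086) and was past the threshold under all 17 alternatives. Smarcd1, an accessory subunit, rose 1.24-fold, from 10.8 ± 0.267 to 13.4 ± 0.172 CPM (SD, n = 3; edgeR adjusted p = 0.0423), a call lost with any 1 library left out (adjusted p up to 0.111) and under 4 other settings. Of 17 TIP60 complex subunits that partner Brd8, none passed edgeR's adjusted test, which 6.78% of all genes passed. An unadjusted edgeR p under 0.05 was seen for 4 of the 17 (22.2% of all genes). Of these 4, Mbtd1 was lower after Ep300 siRNA (log2 fold change −0.24) and the others higher. DESeq2 called 1 of the 17 (9.12% of all genes) and limma-voom called 0 (6.63% of all genes). The median over the 17 was 0.04, which was 0.07 without control replicate 2 and 0.01 with library size alone. The smallest p was that of Yeats4, an acetyl-lysine reader, at a log2 fold change of 0.22 (edgeR adjusted p = 0.0604), the gene that DESeq2 called (adjusted p = 0.0306).

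Of 15 partners of Ncoa6 and secondary coactivators tested, 2 fell, none rose and 13 did not pass by edgeR (median −0.07). Of all genes tested, edgeR called 6.78%, with 4.02% lower. DESeq2 called 2 of the 15 and 9.12% of all genes. An unadjusted edgeR p under 0.05 was seen for 5 of the 15 and for 22.2% of all genes. Of these 5, Kdm6a was higher after Ep300 siRNA (log2 fold change 0.21) and the others lower. Ppargc1b, a coactivator of mitochondrial gene expression, stood at 17.1, 16.8 and 15.4 CPM after Ep300 siRNA and at 20.6, 25.2 and 24.7 CPM after control siRNA. It fell to 0.70 of its control level with the groups apart (edgeR adjusted p = 0.00711). Ncoa4, whose product is best known for carrying ferritin to the lysosome, fell to 0.744, from 67.6 ± 5.63 to 50.3 ± 4.09 CPM (SD, n = 3; edgeR adjusted p = 0.00854), a call lost without control replicate 2 (adjusted p = 0.0561).

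Of 9 corepressor genes, 1 fell and 8 did not pass by edgeR (median 0.04, and −0.07 without control replicate 1). Over all genes tested, 6.78% were called, with 4.02% lower. The gene that fell was Tbl1xr1, a subunit of the NCoR and SMRT complexes, at 28.5, 28.1 and 26.9 CPM against 36.5, 40.1 and 38.5 CPM (0.726 of control, edgeR adjusted p = 0.00231). Of 39 nuclear receptor genes, 23 were high enough to test, of which 1 rose, 1 fell and 21 did not pass (median 0.00). These 2 calls of 23 compare with the same 6.78% of all genes. Rarb, a retinoic acid receptor, stood at 4.98, 5.83 and 5.45 CPM after Ep300 siRNA and at 10.2, 9.40 and 12.1 CPM after control siRNA. It fell to 0.515 of its control level (edgeR adjusted p = 0.00126) and was past the threshold under all 17 alternatives. Nr4a3, an orphan receptor, rose 2.21-fold by the fit from 0.991 ± 0.119 CPM (SD, n = 3; edgeR adjusted p = 0.0231), which was no longer called when replicate 2 or 3 of either group was left out (adjusted p up to 0.0992). Pparg, Ppara and Vdr, receptors that bind p160 coactivators, had at most 6 counts in any library and were not tested. These 3 were picked for mention after their counts were seen.

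**Figure D5:**
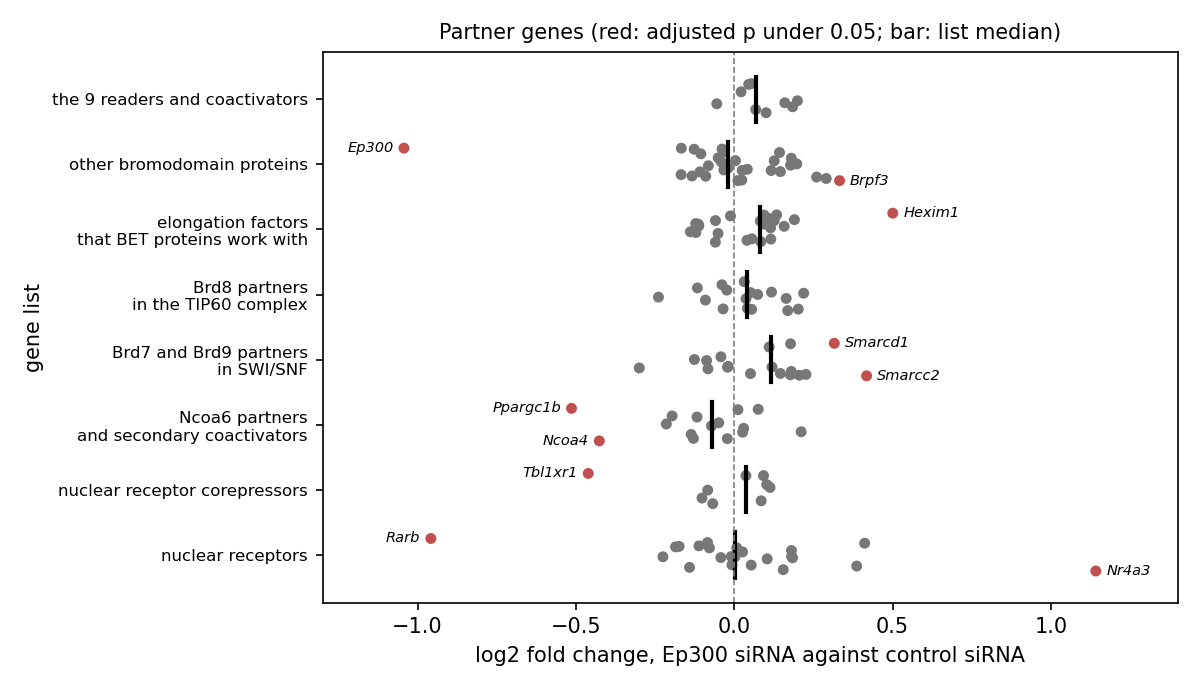
Log2 fold change after Ep300 siRNA against control siRNA (x axis) of each gene tested in 8 lists (y axis), with red points for an edgeR adjusted p under 0.05 and a black bar for the list's median. None of the 9 readers and coactivators is red, while Hexim1, Smarcc2, Smarcd1, Brpf3 and Nr4a3 lie to the right and Ppargc1b, Ncoa4, Tbl1xr1, Rarb and Ep300 to the left.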

How the data were processed

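The authors deposited raw counts of reads for each gene symbol, with 1 column per library, matched to samples by name. The tools listed per the submitters' processing notes are STAR 2.5.3a, fastp 0.23.4, edgeR 3.12.1 and featureCounts, and the build is GRCm38. Strand and multimapping settings: not given in the sources used here. From 79.8% to 80.9% of counts of 1 to 4 were even in each library, so counts were also analysed halved.

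Genes were tested with edgeR 4.0.16 (R 4.3.3): filterByExpr, TMM scaling and the two-sided quasi-likelihood test with no covariate, adjusted by Benjamini-Hochberg over 15741 genes. The biological coefficient of variation was 8.6%, and CPM uses TMM-scaled library sizes. The edgeR step was tested on simulated data. PCR reads are not independent molecules, so intervals cover only the spread of 3 libraries a group.

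Positions, transcripts and overlaps came from GENCODE M21 (GRCm38), which held 47229 of the symbols. Bicra and Bicral were found under older RefSeq symbols. The 9 genes and the lists were chosen with earlier results of these data known. Named genes were the 9, Ep300, Crebbp and list members past the threshold (or the smallest p of a list with none). Also named were the 3 genes that best followed the member with the smallest p, at a mean of at least 5 CPM and without predicted genes. Of the markers of other cell types the smallest p was that of Pdgfra (log2 fold change −0.14, edgeR adjusted p = 0.89). Alternatives were other scalings and filters, DESeq2 1.42.0, limma-voom (limma 3.58.1), a replicate block, halved counts, fewer rows, a stricter threshold and each library left out.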

Additional observations from a re-analysis of the deposited data

How the results depend on the processing

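The 9 genes gave 153 values under 17 alternatives, of which 146 kept their direction and their side of the threshold. DESeq2 called 2 of the 9, Brd2 and Brd7, and every other alternative called 0, as did each library left out (0 to 0). Direction turned for Ncoa1 with library size alone (−0.012) and, without control replicate 1, for Ncoa1 (−0.040), Brd3 (−0.018) and Ncoa2 (−0.0032). It turned for Ncoa6 without Ep300 siRNA replicate 2 (−0.011) and for the marker Pdgfra without control replicate 3 (0.16). With 1 library left out these ran from −0.018 to 0.11 for Brd3, −0.040 to 0.080 for Ncoa1, −0.0032 to 0.14 for Ncoa2, −0.011 to 0.083 for Ncoa6 and −0.40 to 0.16 for Pdgfra. The cause was not tested. Over all genes, 1068 were called, 1721 with no filter on low counts (30207 genes tested), 369 at an adjusted p under 0.01, and 490 to 1054 with 1 library left out (490 without control replicate 2, 533 and 593 without Ep300 siRNA replicate 2 and control replicate 3, and 698 and 696 without Ep300 siRNA replicates 1 and 3). DESeq2 called 693 genes higher, against 435 by edgeR. Library size alone moved the median of all genes to −0.04.

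Differences of the paired gene ratios kept their sign with each library left out: 0.076 to 0.20 for Brd2/Brd3, 0.064 to 0.12 for Brd7/Brd9, −0.096 to −0.0078 for Ncoa1/Ncoa2, −0.16 to −0.11 for Ncoa1/Ncoa3, −0.14 to −0.058 for Ncoa2/Ncoa3 and −0.20 to −0.074 for Ncoa6/Ncoa3. Whether replicate numbers pair the libraries could not be settled from deviations around means of 3 libraries. The correlations of same-numbered deviations were −0.047 to 0.087, and those of different numbers were −0.10 to 0.088. Of the 6 libraries, 2 correlated best with their own number. With the number as a block, 0 of the 9 genes were called and 1357 genes in all. Smarcd1 was at an adjusted p of 0.0543 with the block.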
